A study of Homo sapiens with 12 samples.

Results

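The RNAs described here are 6 long non-coding RNAs (lncRNAs): NORAD, OIP5-AS1, LINC01061, LINC02604, SNHG16 and LINC01000. They were chosen by the AGO2-bound regions that earlier results of these data showed in their genes, so their region numbers are a description and were not tested. A member region is one that overlaps the RefSeq span of such a gene on the gene's strand. There were 10 of these among 1190 regions obtained with wild-type AGO2 (WT) and 29 among 2921 regions obtained with the mutant 5xA, that is 39 of 4111 regions in all.

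The regions come from eCLIP in HCT116, an established human colorectal carcinoma line. In eCLIP, ultraviolet light fixes RNA to the protein in contact with it, the protein is immunoprecipitated (IP), and the RNA fragments are sequenced. The 12 samples are an input and an anti-FLAG IP, each in duplicate, of 3 genotypes: AGO2_KO (AGO2 knockout cells), FH-AGO2_WT and FH-AGO2_5xA. The report uses the IPs of the last pair, and all cells share the HCT116 background. In 5xA a cluster of phosphorylated residues of AGO2 is replaced by alanine. The sources do not say whether each genotype is 1 clone. The authors deposited 1 merged region list per genotype, so there is no spread between replicates to set any difference against, and the depth behind a region is unknown.

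Argonaute proteins carry microRNAs (miRNAs), which guide them to RNAs that pair with the miRNA seed, its bases 2 to 8. mRNAs bound in this way are repressed, whereas some lncRNAs are known to act on the regulator instead. NORAD is a cytoplasmic RNA known for its many binding sites for the Pumilio proteins, repressors of mRNAs, and for a part in genome stability. OIP5-AS1, also called cyrano, is known for an extensively paired site that leads to decay of miR-7. SNHG16 is a host gene of small nucleolar RNAs (snoRNAs), which guide chemical modification of ribosomal RNA and are cut from introns. No function is given here for LINC01061, LINC02604 and LINC01000.

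A pair of sequences helps to place the results, both from RefSeq on GRCh38.p14. The first is the mature miRNA that OIP5-AS1 is known to bind, with its seed in capitals. The second is the stretch of LINC02604 that lies under a 5xA region and within the RefSeq promoter window, at chr7:66904026-66904169 on the plus strand, with bases of the annotated gene in capitals and the bases upstream of it in lower case.

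miR-7-5p: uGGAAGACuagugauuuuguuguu

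LINC02604: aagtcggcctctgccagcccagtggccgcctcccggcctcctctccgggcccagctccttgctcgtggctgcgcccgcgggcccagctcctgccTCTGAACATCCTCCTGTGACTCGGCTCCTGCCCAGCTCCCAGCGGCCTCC

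All 6 lncRNA genes held more regions with 5xA than with WT. Most genes did likewise, since 926 of the 1642 genes with a region held 5xA regions alone. NORAD held 4 WT and 9 5xA regions. OIP5-AS1 held 3 WT and 4 5xA regions. LINC01061 held 2 WT and 7 5xA regions. LINC01000 held 1 WT and 2 5xA regions. LINC02604 and SNHG16 held 4 and 3 regions with 5xA and 0 with WT. Over the members the 5xA number was 2.9 times the WT number, beside 2.45 times over all regions, and the bases covered were 4327 against 1709, a ratio of 2.53, beside 2.35 over all regions. Members took 0.84% of the WT list and 0.993% of the 5xA list, so the longer 5xA list and the members' 5xA numbers cannot be told apart.

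**Figure D1:**
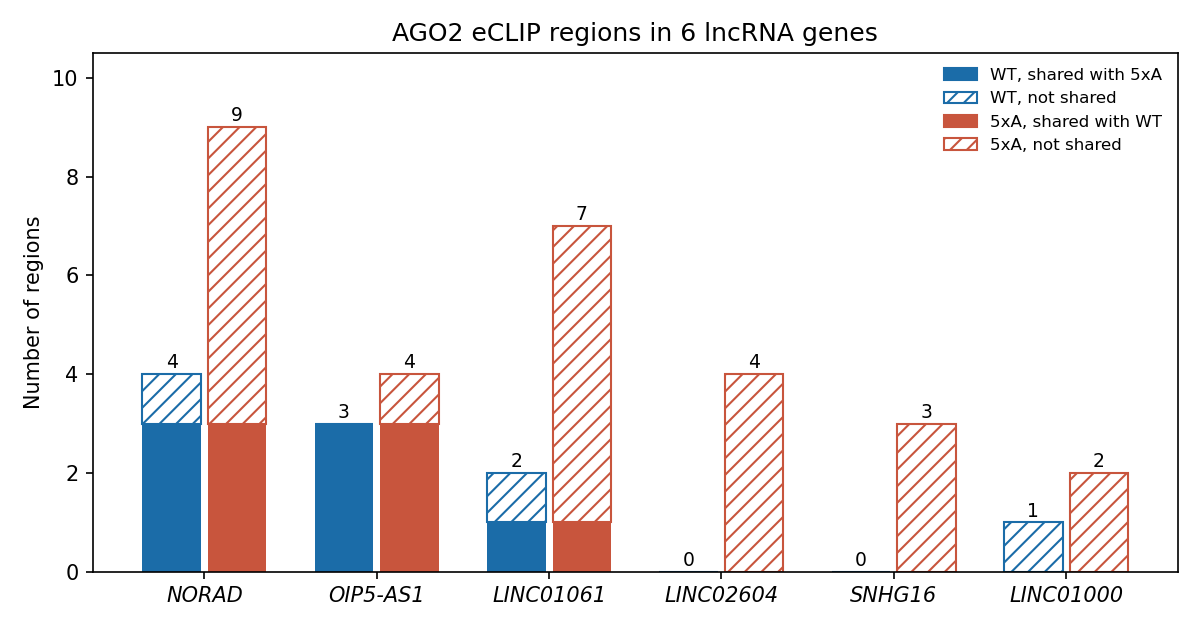
Number of regions in each lncRNA gene (vertical axis, count) in the WT list (blue) and the 5xA list (red). Filled parts are regions that overlap a region of the other list and hatched parts are those that do not; NORAD reaches 9 with 5xA, and LINC02604 and SNHG16 have 0 with WT.

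A region was called shared if a region of the other list met it in 1 base or more of the same strand. Of the 10 WT regions in the members, 7 (70%, exact 95% Clopper-Pearson interval 34.8 to 93.3) were shared, beside 81.3% of all WT regions. Of the 29 5xA regions, 7 (24.1%, 10.3 to 43.5) were shared, beside 32.3% of all 5xA regions. The intervals are no test against the whole lists, because the members were chosen by their regions in these same lists. They treat regions as independent draws, although several lie in 1 gene. The 7 shared positions were 3 in NORAD, 3 in OIP5-AS1 and 1 in LINC01061, each a single WT region against a single 5xA region. LINC02604, SNHG16 and LINC01000 had no shared position. For LINC02604 and SNHG16 this follows from their lack of WT regions, and LINC01000 held 1 WT region.

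NORAD held regions along much of its length. The gene lies at positions 36045618 to 36050960 of chromosome 20 on the minus strand (5343 bases), and its RNA is not spliced, so places in the gene are places in the RNA. Counted from its 5′ end, the WT regions covered bases 215 to 336, 1194 to 1531, 2052 to 2409 and 3790 to 3958. The 5xA regions covered bases 220 to 382, 773 to 1060, 1276 to 1414, 1710 to 1972, 2033 to 2461, 2499 to 2584, 2900 to 3116, 3120 to 3260 and 3265 to 3503. WT regions covered 987 bases (18.5% of the RNA) and 5xA regions covered 1965. Both lists together covered 2338 bases, or 43.8%. The last 1385 bases, toward the 3′ end, held no region in either list.

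The 3 shared NORAD positions lay in the first 2461 bases. The position nearest the 5′ end was 122 bases wide with WT and 163 with 5xA, with 117 bases in common. At the next, the 5xA region (139 bases) lay wholly within the WT region (338 bases), so the WT region was the wider. At the last, the reverse held: the WT region (358 bases) lay wholly within the 5xA region (429 bases), the widest member region of either list. The middles of these pairs were 25.5, 17.5 and 16.5 bases apart.

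The other 6 NORAD regions with 5xA met no WT region. Of these, 3 lay end to end between bases 2900 and 3503, with gaps of 3 and 4 bases, in a stretch where WT had none. The WT region at bases 3790 to 3958 was the one furthest toward the 3′ end, and the nearest 5xA region ended 286 bases before it. With regions up to 50 bases apart joined, NORAD held 4 WT and 6 5xA regions. Of 1568 genes with a 5xA region, 19 (1.21%) held 9 or more, and of 716 genes with a WT region, 41 (5.73%) held 4 or more. NORAD was thus among the genes with most regions in each list, which is also how it was chosen.

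OIP5-AS1 was the member in which each WT region had a 5xA partner. The gene spans positions 41282697 to 41313338 of chromosome 15 on the plus strand, 30642 bases with introns. All 7 regions lay in a window of 1435 bases, 4.68% of that span. The WT regions covered positions 41300373 to 41300519, 41300545 to 41300740 and 41301731 to 41301798. The 5xA regions covered 41300366 to 41300521, 41300540 to 41300781, 41300975 to 41301070 and 41301734 to 41301800. The pairs had 147, 196 and 65 bases in common, 100%, 100% and 95.6% of the WT regions. The middles of the outer pairs were 2.5 bases apart and those of the middle pair 18. The single region without a partner was 96 bases wide, and the nearest WT region lay 234 bases away. Of 642 genes with regions in both lists, 527 (82.1%) likewise had each WT region shared, so OIP5-AS1 did here what most such genes did. Those genes were not matched to OIP5-AS1 by their number of WT regions.

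LINC01061 held most of its regions with 5xA alone. The gene lies at positions 119405523 to 119410660 of chromosome 4 on the minus strand (5138 bases). Counted from its 5′ end, the WT regions covered bases 2636 to 2728 and 3393 to 3495. The 5xA regions covered bases 1037 to 1216, 2821 to 3075, 3222 to 3329, 3372 to 3482, 3679 to 3779, 3846 to 3915 and 4778 to 4863. Only the WT region from base 3393 was shared, with 90 bases in common, 87.4% of the WT and 81.1% of the 5xA region. The other WT region ended 92 bases before the nearest 5xA region. Of the 7 5xA regions, 5 lay between bases 2821 and 3915, the shared one among them, and the others lay 1419 and 1282 bases from the nearest WT region. The 5xA regions covered 911 bases and the WT regions 196, a ratio of 4.65, the highest among the members with regions in both lists. Of all genes with a 5xA region, 39 (2.49%) held 7 or more.

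**Figure D2:**
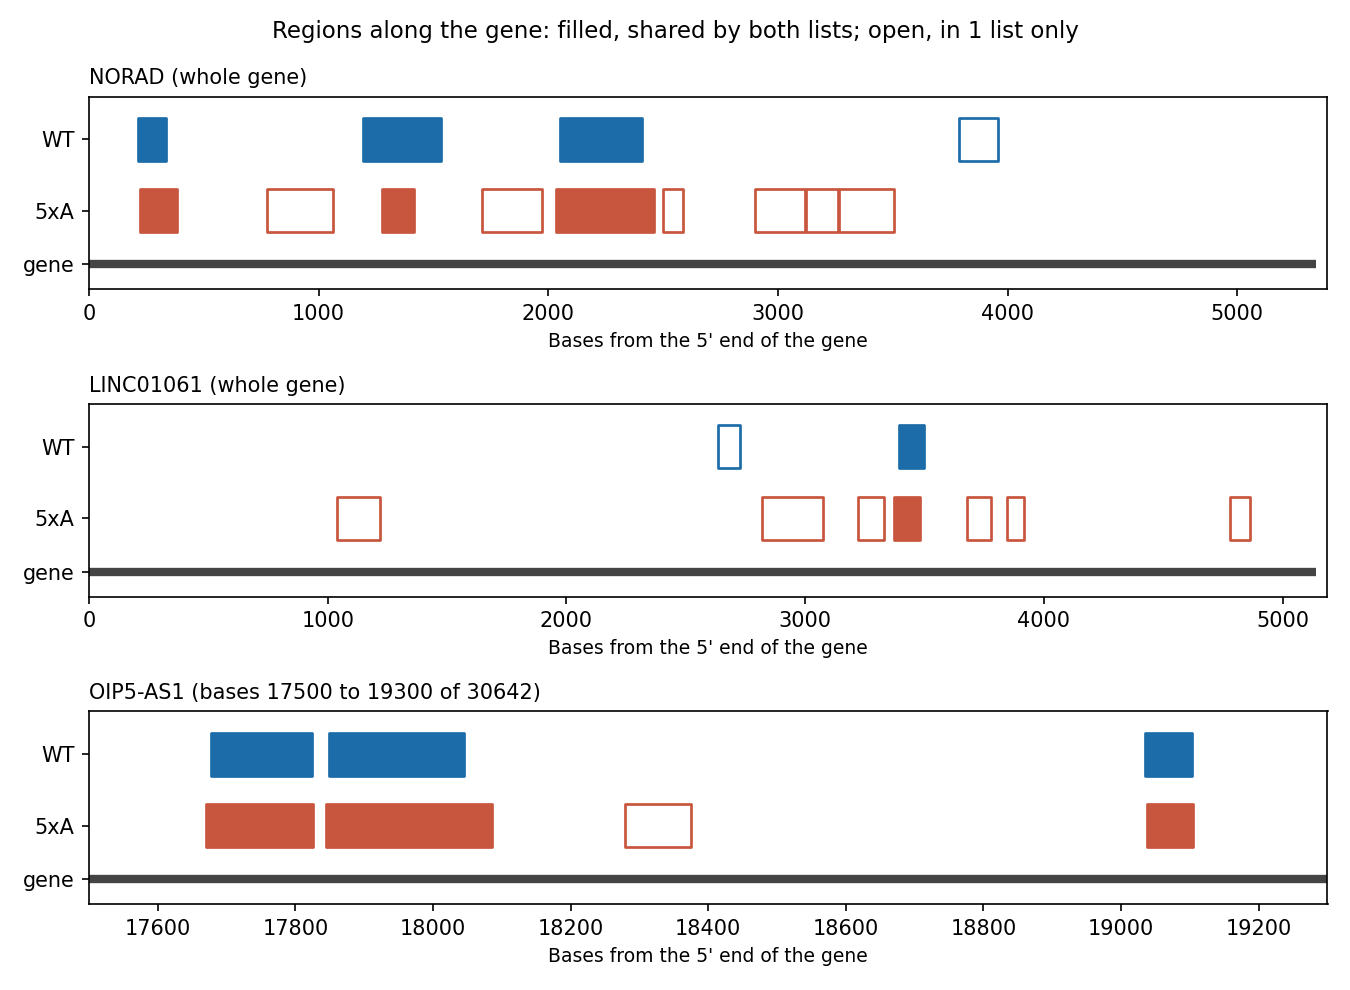
Regions along NORAD, LINC01061 and OIP5-AS1, the genes with shared regions (horizontal axis, bases from the gene's 5′ end; OIP5-AS1 shows only the part that holds regions). Blue boxes are WT and red boxes 5xA regions, filled where shared; NORAD has open 5xA boxes between and beyond its 3 shared ones, LINC01061 has them on both sides of its single shared one, and OIP5-AS1 has 1 open box.

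LINC02604 held regions with 5xA only. It is a short gene, at positions 66904120 to 66906297 of chromosome 7 on the plus strand (2178 bases). The 5xA regions covered positions 66904026 to 66904201, 66904332 to 66904405, 66905089 to 66905152 and 66905620 to 66905702. The first of these began 94 bases upstream of the annotated start. Further upstream, outside the span, each list held 1 more region on the same strand: WT from 66903434 to 66903580, 539 bases before the gene, and 5xA from 66903430 to 66903844, 275 bases before it. These overlapped each other. The absence of WT regions therefore holds for the annotated span, and with the span widened by 1 kb LINC02604 held 1 WT and 5 5xA regions. Whether the upstream regions belong to the same RNA was not tested.

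The LINC02604 stretch printed above covers 144 of the 176 bases of the first 5xA region. Its G and C content was 72.9%, beside a median of 60.4% over the same bases of 35116 RefSeq promoter windows, of which 19.5% were at or above its value. It was searched, on its own strand, for the complements of bases 2 to 8 of 34 miRNAs, 28 different words such as CTACCTC for let-7a-5p and GTCTTCC for miR-7-5p. It held 0 of them, and 20.7% of the windows held at least 1 (single words were in 0.253% to 2.52%). Of the 6-base words that complement bases 2 to 7, it held CTGTGA, that of miR-27a-3p, which starts at base 108 of the stretch and is found in 5.42% of windows. At least 1 such 6-base word was in 55.7% of windows. The Pumilio motif TGTANATA was not in the stretch, and 0.547% of windows held it. No other member region could be read as sequence here.

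SNHG16, the snoRNA host, also held regions with 5xA only. The gene spans positions 76557764 to 76565348 of chromosome 17 on the plus strand (7585 bases) and contains the genes of 3 snoRNAs, SNORD1C, SNORD1B and SNORD1A. The 5xA regions covered positions 76561637 to 76561701, 76563119 to 76563198 and 76564130 to 76564275. The first, 65 bases wide, lay wholly inside SNORD1A (76561633 to 76561706), 4 bases from one end and 5 from the other. It is a region of the snoRNA span as much as of its host, and without it SNHG16 held 2 regions. SNORD1B and SNORD1C held 0. In the whole 5xA list 2 regions lay wholly inside a snoRNA gene and in the WT list 0. The nearest WT region on the strand was 652006 bases from SNHG16's last region. Among 926 genes with regions in the 5xA list alone, 41 (4.43%) held 3 or more, SNHG16 and LINC02604 among them, and 9 (0.972%) held 4 or more, as LINC02604 did.

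LINC01000 held regions in both lists that did not meet. The gene spans positions 128641241 to 128660998 of chromosome 7 (19758 bases). Its strand was in no table used here, and all 3 regions lay on the plus strand. The WT region covered positions 128651875 to 128651989, and the 5xA regions covered 128652187 to 128652303 and 128652628 to 128652712. The WT region ended 197 bases from the nearer 5xA region. All lay in 838 bases near the middle of the span, outside the pseudogene CICP14 that the span also holds. Of the 642 genes with regions in both lists, 43 (6.7%) had no shared region. Those 642 genes were not matched to LINC01000 by their number of WT regions. For LINC01000 the lack of a shared region rests on its 1 WT region, and 81.3% of all WT regions were shared.

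**Figure D3:**
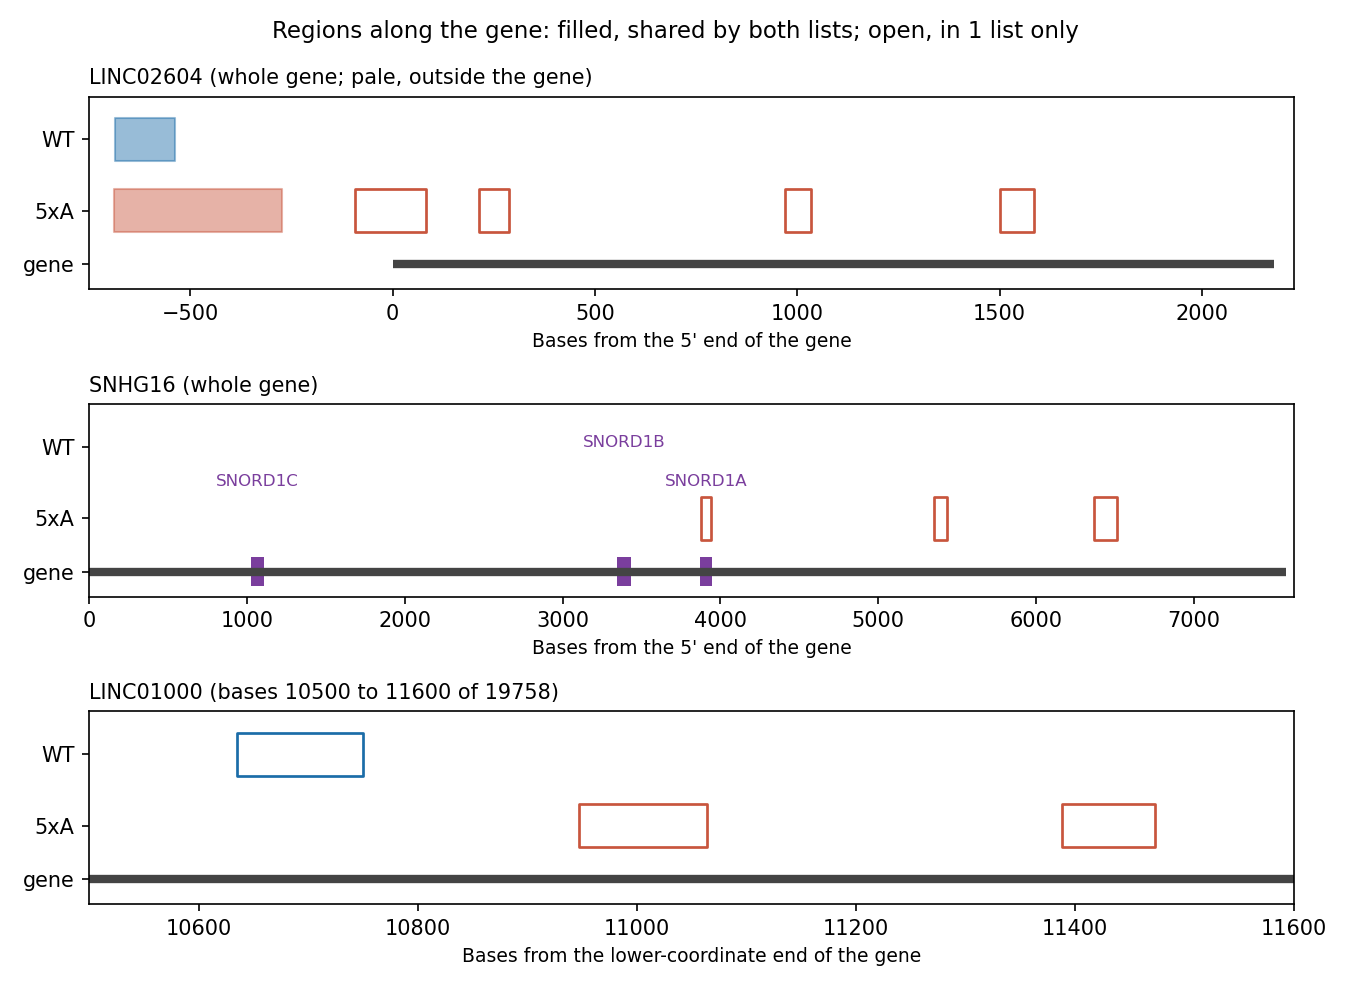
Regions along LINC02604, SNHG16 and LINC01000, the genes with no shared region (horizontal axis, bases from the 5′ end; LINC01000, whose strand is not known here, from its lower coordinate). Open boxes are WT (blue) and 5xA (red) regions, pale boxes lie upstream of LINC02604 and purple marks are snoRNA genes; the first SNHG16 box sits on SNORD1A.

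Member regions stayed well below the widest regions of the lists, 1508 bases with WT and 6057 with 5xA. WT regions in the members were 68 to 358 bases wide (median 134.5, beside 114 over all WT regions), and 7 of 10 were wider than the median of the list. 5xA regions were 64 to 429 bases wide (median 117, beside 104), and 17 of 29 were wider than the list's median. Without NORAD the medians were 109 and 98.5 bases, below those of the lists. Shared member regions had medians of 147 (WT) and 156 bases (5xA), and unshared ones 115 and 104.5, in the same order as in the whole lists (121 and 91 with WT, 145 and 93 with 5xA). A wider region can meet another more easily, but whether this lies behind the difference was not tested. Among the 7 overlapping pairs, 5 had the wider region with 5xA and 2 with WT.

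**Figure D4:**
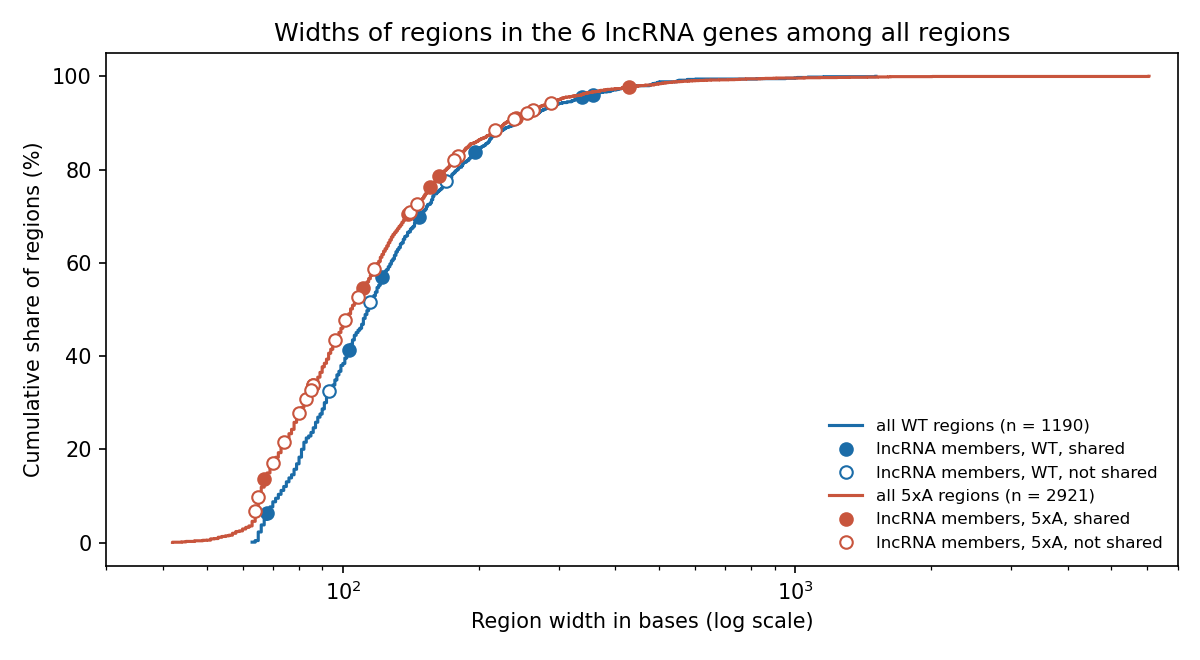
Cumulative share of regions (vertical axis, %) by width in bases (horizontal axis, log scale) for all 1190 WT (blue) and 2921 5xA regions (red), with the member regions as points, filled where shared. Points lie from 68 to 358 bases with WT and from 64 to 429 with 5xA, while the curves go on to 1508 and 6057 bases.

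Other lncRNA genes held few regions. Each region was given to a protein-coding gene where one overlapped, then to a lncRNA gene, and to the shortest of several, on the gene's strand where it was known. The strand was known for 27305 of 59792 genes, so a region may have been given to a gene on the opposite strand. By this rule 39 lncRNA genes held 31 WT and 66 5xA regions, of which the members held 10 and 29. NORAD, LINC01061 and OIP5-AS1 held the most. LOC105378198, which is no member, came next with 3 regions in each list, all shared and at the vault RNA genes inside it. The following ranked genes outside the members were MIR3667HG, OVCH1-AS1 and MIRLET7A1HG with 1 WT and 2 5xA regions each, and BCAN-AS2 with 0 and 2. The rule left H19 unranked, although it held 2 WT and 3 5xA regions, because these also lie in the span of MRPL23. MIRLET7A1HG's regions lay at MIRLET7A1 and MIRLET7F1. Of 33 other lncRNA genes, 8 (24.2%) had regions that overlapped a miRNA or vault RNA gene, and the rest had none. No member region did, but the members were chosen by their regions in these lists. It is therefore not a trait that sets them apart. In these 33 genes 18 of 21 WT regions (85.7%) and 18 of 37 5xA regions (48.6%) were shared. Among them are the 8 genes at miRNA or vault RNA genes, in which each WT region and most 5xA regions were shared. The shares are thus not like for like with those of the members, and shares without the 8 genes were not computed.

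Named lists of lncRNAs show which others were bound. Of 25 snoRNA host genes, SNHG8 held regions in both lists (1 and 1, shared), and SNHG16, SNHG1 and SNHG7 held 3, 1 and 1 with 5xA only. The SNHG7 region also lay in the span of LOC124900276. The other 21, GAS5 and ZFAS1 among them, held 0. Of 38 well-known lncRNAs, 5 held regions in both lists: NORAD, H19, MIR17HG, MIR100HG and DLEU2. The imprinted RNA H19 held 2 WT and 3 5xA regions on its own strand, and both WT regions were shared. Its span lies inside that of MRPL23, whose strand was in no table used here, so it was not ranked above. In MIR17HG, MIR100HG and DLEU2 the regions lay on miRNA genes (MIR18A, MIRLET7A2 and MIR16-1) and were 65 to 68 bases wide. The nuclear RNAs MALAT1 and NEAT1 held 0 in either list.

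Partners of NORAD and OIP5-AS1 held regions at 1 gene only. Of 12 listed, among them the RNA-binding protein gene ELAVL1 and the miR-7 sponge CDR1-AS, MIR7-1 alone held regions, 1 in each list. Both covered the same positions, 83969769 to 83969834 of chromosome 9, on the minus strand (66 bases), inside the host gene HNRNPK. They held all 24 bases of miR-7-5p, whose sequence is printed above, and began exactly at its 5′ end, and all 22 bases of the opposite arm, miR-7-1-3p. MIR7-1 and OIP5-AS1, the known partner RNA of miR-7, thus both held regions in each list. The lists do not tell the precursor from mature miRNA. Whether a miR-7 match lies under the OIP5-AS1 regions was not tested.

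Cell markers were counted once, since a region shows bound RNA and not expression. Among the 15 markers of colorectal epithelium, CLDN4 was in both lists (2 WT regions, 1 5xA region). The span of VIL1, whose strand is not known here, held 1 minus-strand region with 5xA, in a place that USP37 also spans. Whether that region belongs to VIL1 was not tested. EPCAM, CDH1, KRT8, KRT18, KRT19 and CDX2 held 0. Of 8 fibroblast markers COL1A1, whose strand is not known here either, held 2 and 4, and of 7 blood cell markers 0 held a region.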

How the data were processed

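RNA bound by tagged AGO2 was measured by eCLIP. The authors deposited 2 BED lists, WT and 5xA, each merged from 2 IP replicates per the labels' descriptions; the other 8 samples were not analysed here. Other than positions on hg38, the deposited score column was 0 in each row and was not used. The submitters' processing notes name hg38, cutadapt 1.9.1 and TopHat2; the peak caller, its threshold, the merging rule and the treatment of reads that fit several places were not stated there. Depth is unknown.

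Positions were made 1-based. Gene spans came from RefSeq on GRCh38.p14, which shares its chromosome coordinates with hg38; TP53COR1 and CDR1, on the lists, were not matched, and 1 list gene is not reported here. Strands came from the RefSeq promoter table for 5 of 6 members and for 27305 of 59792 genes in all. For the other genes a region on either strand was counted, so all counts of genes given here are stranded only in part. No genome or exon annotation was used. Overlaps were counted in Python 3.11.15 and checked against bedtools 2.31.1 and on simulated data. No test across genes was run: members, gene lists and the rule for named genes (the members, the 5 other lncRNA genes with most regions, and list genes with a region) were chosen with earlier results of these data known. Intervals are exact (scipy 1.17.1) and cover counting error only.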

Additional observations from a re-analysis of the deposited data

How the results depend on the processing

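Counting either strand, only regions wholly inside the span, a span widened by 1 kb, no regions over another gene, joined regions (gap up to 50 bases) or no LINC01000 left 9 to 11 WT and 24 to 30 5xA member regions, against 10 and 29. With the widened span LINC02604 held 1 WT region in place of 0. Shared numbers were 7 in each list, also with strand ignored or regions up to 50 bases apart, 6 in each with a reciprocal overlap of 50%, and 4 in each without NORAD, an alternative chosen after seeing the data, as was the one without LINC01000. Median widths with joined regions were 122 (WT) and 128 bases (5xA), and without NORAD 109 and 98.5, against 134.5 and 117. The median place of member regions, as a percentage of gene length, was 56.0 (WT) and 57.8 (5xA) at region middles and 55.8 and 57.6 at their 5′ ends. For these medians LINC01000, whose strand is not known here, was taken as a plus-strand gene, and gene lengths include introns. In the LINC02604 stretch 1 miRNA of the list matched over 6 bases and 0 over 7. Places along spliced RNA, and seed or Pumilio searches downstream of the stretch or in other regions, were not run. No paired analysis was possible because each list pools its replicates. With 1 list per genotype, differences in depth, threshold and merging cannot be told apart from the genotype.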
